A study of Homo sapiens with 12 samples.

Results

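The genes described here are 46 genes that copy DNA in S phase of the cell cycle or supply and time that copying, taken by their symbols from a fixed list and matched to the Ensembl gene IDs of a table of 60675 genes. All 46 were found, and all 46 were among the 15374 genes with enough counts to be tested. By role they were the 6 subunits of the MCM helicase ring, 4 genes that recognise and license origins, 6 that activate the helicase, 6 of the sliding clamp and its loader, 8 of the primase and the polymerases, 2 that finish Okazaki fragments, 3 of the single-strand DNA binding complex, 5 of nucleotide supply, 4 cyclin E and E2F genes, and 2 genes of chromatin and histone mRNA.

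RNA was sequenced from HT29 cells, a line from a human colorectal adenocarcinoma that grows continuously in culture. For 24 h the cells received a water extract of Aconitum carmichaeli Debeaux (ACD), a plant used in herbal medicine, and the low, medium and high doses were 20, 100 and 500 µg/mL. The extract was dissolved in PBS with 2% DMSO, and control cells received this solution alone (vehicle), so cells of all groups received DMSO. The 2% is the share in the solution that was added to the medium, not in the medium itself. Each of the 4 groups had 3 libraries. Groups were taken from the titles and the treatment entries, which give ACD, although the treatment protocol kept with the same libraries is written for Poria cocos. The labels name no genetic change in any group and do not say whether the 3 libraries of a group came from separate cultures, so the p-values measure only the spread between these libraries, which may be technical.

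Replication begins when the origin recognition complex, CDC6 and CDT1 load the MCM ring onto DNA in G1 phase. CDC45 and the GINS complex then turn the ring into an active helicase, RPA covers the exposed single strands, primase and polymerase alpha lay down primers, and polymerases delta and epsilon extend them on the PCNA clamp. Many of these genes are classical targets of E2F transcription factors, and their mRNAs are usually abundant in dividing cell lines and scarce in resting cells.

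The promoters of the 3 genes that passed the test at the high dose (CDC6, RFC3 and PRIM1) are shown with those of MCM6, a helicase subunit with repeated E2F letters, and of E2F1, a factor that reads them, so that the letters can be seen in place. Each runs 5′ to 3′ from 250 bases before to 50 bases after the gene's start in RefSeq (GRCh38.p14), and capitals mark E2F letters, that is TTTCCCGC, TTTGGCGC, TTTCGCGC or TTTGCCGC on either strand. CDC6 lies at chr17:40287629-40287928 on the plus strand, RFC3 at chr13:33817899-33818198 on the plus strand, PRIM1 at chr12:56752274-56752573 on the minus strand, MCM6 at chr2:135876394-135876693 on the minus strand and E2F1 at chr20:33686336-33686635 on the minus strand.
CDC6: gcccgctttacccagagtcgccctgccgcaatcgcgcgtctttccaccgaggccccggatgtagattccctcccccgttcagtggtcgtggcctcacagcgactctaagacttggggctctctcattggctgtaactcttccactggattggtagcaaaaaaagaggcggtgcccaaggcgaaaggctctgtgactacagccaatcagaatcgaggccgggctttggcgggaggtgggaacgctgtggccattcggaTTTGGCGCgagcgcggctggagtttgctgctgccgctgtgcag
RFC3: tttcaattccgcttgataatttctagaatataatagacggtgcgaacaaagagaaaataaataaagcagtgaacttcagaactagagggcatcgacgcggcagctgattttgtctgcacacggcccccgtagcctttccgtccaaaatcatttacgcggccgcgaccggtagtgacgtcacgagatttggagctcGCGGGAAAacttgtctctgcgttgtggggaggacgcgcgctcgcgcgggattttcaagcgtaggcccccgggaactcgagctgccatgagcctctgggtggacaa
PRIM1: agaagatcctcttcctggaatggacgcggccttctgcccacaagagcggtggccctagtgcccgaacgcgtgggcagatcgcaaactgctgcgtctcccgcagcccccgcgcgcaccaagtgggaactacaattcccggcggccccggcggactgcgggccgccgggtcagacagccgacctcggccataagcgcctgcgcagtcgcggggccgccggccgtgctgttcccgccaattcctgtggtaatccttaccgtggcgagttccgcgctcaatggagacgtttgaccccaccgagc
MCM6: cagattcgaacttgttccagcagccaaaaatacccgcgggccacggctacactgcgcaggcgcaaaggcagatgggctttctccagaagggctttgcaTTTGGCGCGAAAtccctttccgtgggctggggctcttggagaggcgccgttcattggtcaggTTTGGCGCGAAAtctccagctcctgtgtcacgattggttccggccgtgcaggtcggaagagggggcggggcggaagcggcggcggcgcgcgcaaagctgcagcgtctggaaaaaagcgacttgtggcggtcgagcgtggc
E2F1: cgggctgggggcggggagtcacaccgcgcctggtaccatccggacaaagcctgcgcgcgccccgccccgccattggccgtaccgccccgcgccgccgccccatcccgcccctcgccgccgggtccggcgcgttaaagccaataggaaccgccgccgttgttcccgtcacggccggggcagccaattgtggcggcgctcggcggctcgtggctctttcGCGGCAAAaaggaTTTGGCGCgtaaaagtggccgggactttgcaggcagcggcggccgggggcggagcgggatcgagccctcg

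CDC6 and RFC3 each held 1 match, on opposite strands, and PRIM1 held none. MCM6 held 4 matches in 2 stretches, where a match on 1 strand overlaps a match on the other, and E2F1 held 2. Of the 39 members found in the RefSeq promoter table, 18 (46.2%) held E2F letters, against 3.31% of all 35116 promoters of the same length. The CCAAT box (CCAAT on either strand) stood in 21 members (53.8%), against 34.6% of all promoters, and the CHR letters of late cell cycle genes (TTTGAA or TTCGAA on either strand) in 3 members (7.69%), against 16.4%. MCM4, MCM5, GINS4, POLD3, RPA2, RPA3 and CCNE2 were not matched. A match of letters is a description of the window and does not show that a factor binds there.

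The libraries held between 15941255 and 33866644 expected counts, and the counts of the members lay between 105 (E2F2) and 12842 (MCM7) in a library. All 10 markers of colorectal epithelium had counts in all libraries. KRT8 (5670 to 7280 CPM), KRT18 and EPCAM were abundant, while CDX2 (4.8 to 6.84), CEACAM5 (5.18 to 10.8) and CDX1 (0.951 to 1.53) were low. The summed fibroblast markers reached at most 2.73 CPM, COL1A2 was at 0 in all 12 libraries and the leukocyte marker PTPRC was at 0 in 10. Summed over 4 genes, the astrocyte markers reached at most 8.87 CPM, most of it ALDH1L1 (5.91 to 8.72), a level like that of CDX2. Of the leukocyte markers LYZ alone was abundant (1180 to 1820 CPM). Transcripts of chromosome M took 14% to 16.6% of the counts at the high dose and 7.41% to 11% in the other libraries. High-dose replicate 2, the library with the lowest total, stood apart: its log2 levels deviated from those of its group mates with an SD of 0.502 over 10626 genes above 5 CPM, against 0.102 to 0.293 in the other 11 libraries. The plot of fold changes at the high dose shows each member with and without this library.

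CPM, the counts scaled to the size of the library, were divided by the length of the canonical transcript in kilobases to compare levels between genes. In vehicle-treated cells the members had a median of 23.6 CPM per kb, against 6.14 for the 15196 tested genes with a known length, and 43 of 46 members lay above the latter value. PCNA, the sliding clamp, was the most abundant at 178 ± 18.8 CPM per kb (SD, n = 3), followed by the helicase subunit MCM7 at 158 ± 2.45, thymidine kinase TK1 at 114 ± 9.63, thymidylate synthase TYMS at 90.9 ± 2.63 and the ribonucleotide reductase subunit RRM2 at 83.2 ± 3.14. RRM2 and the gene next in order, the flap nuclease FEN1 (78.5 ± 4.81), did not differ beyond their SDs, and PCNA exceeded MCM7 by little more than its own SD. The licensing factor CDC6 stood at 16.6 ± 0.484 CPM per kb and the helicase activator MCM10 at 7.01 ± 0.44. The lowest were the GINS complex subunit GINS4 at 2.22 ± 0.341 and the transcription factor E2F2 at 1.66 ± 0.154. Within the MCM ring, whose 6 subunits stand in equal numbers in the assembled helicase, the levels per kb in vehicle were spread from 29.4 ± 0.314 (MCM5) to 158 ± 2.45 (MCM7).

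**Figure D1:**
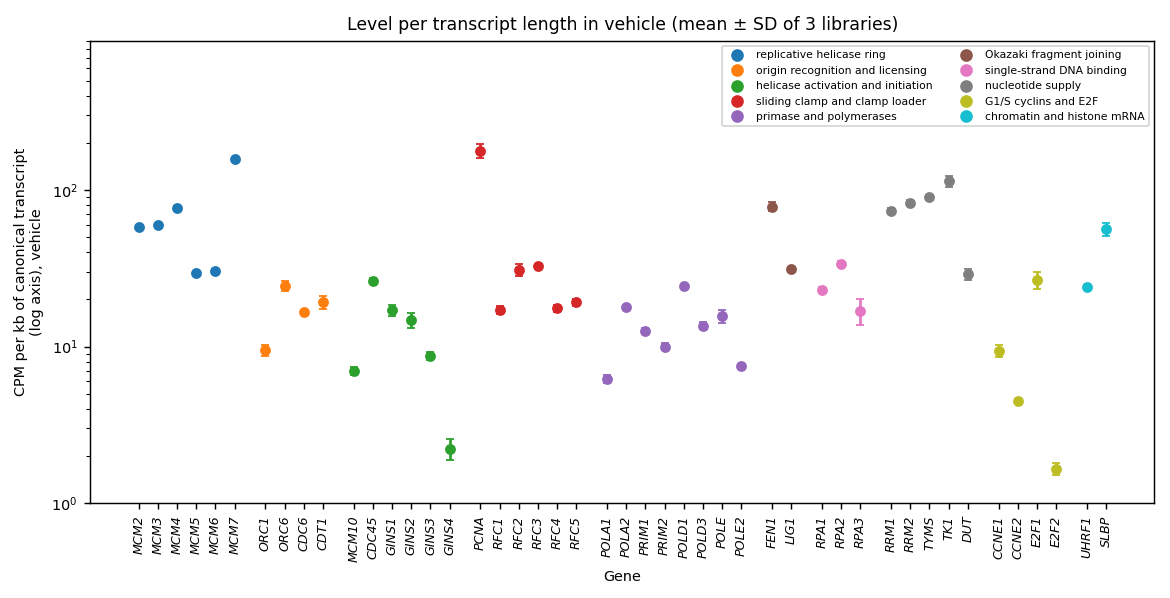
Level of each of the 46 genes in vehicle-treated cells, in CPM per kb of canonical transcript on a log axis, grouped and coloured by role. Points are means of 3 libraries and bars the SD, with PCNA highest (178) and E2F2 lowest (1.66).

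For 13 members some exon bases of the canonical transcript also belong to a gene on the opposite strand, most in TYMS (66.5% of its bases), CCNE2 (57.1%), GINS4 (33.4%) and MCM2 (32.4%), and the strand setting used in counting is not given in the sources used here. For 10 members, among them PCNA, RRM2, RFC3 and DUT, the annotation names at least 1 copy such as a pseudogene. The values of these genes are uncertain to that extent, whereas 27 members, including CDC6, have neither.

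At the high dose the replication genes lay close to their vehicle levels. In bulk RNA of this kind, a change in the share of cells in S phase and a change in the level per cell cannot be told apart. Of the 46 members, 3 rose (CDC6, RFC3 and PRIM1) and 0 fell in edgeR's quasi-likelihood test at an adjusted p under 0.05, against 5.77% of all genes tested that passed and 2.82% that rose. None of the members was a DEG, for which a fold change above 1.5 was required as well, against 2.93% of all genes. DESeq2's Wald test on all libraries called 5 members, all higher, these 3 with ORC1 and MCM10, against 8.46% of all genes. At an unadjusted p under 0.05 in edgeR there were 11 members, all higher, against 20.1% of all genes in either direction and 9.82% that were higher. The median log2 fold change of the members was 0.127, against 0.005 over all genes, and 41 of 46 were above 0, against 51% of all genes. The 95% interval of the fold change lay within 1.5-fold of vehicle for 42 members, and the median arm of this interval was 0.21 on the log2 scale. Without high-dose replicate 2 the median was 0.055 (all genes −0.011) and 30 members were above 0. With library sizes taken without chromosome M, whose share was higher at this dose, the same 3 members passed, against 5.68% of all genes.

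**Figure D2:**
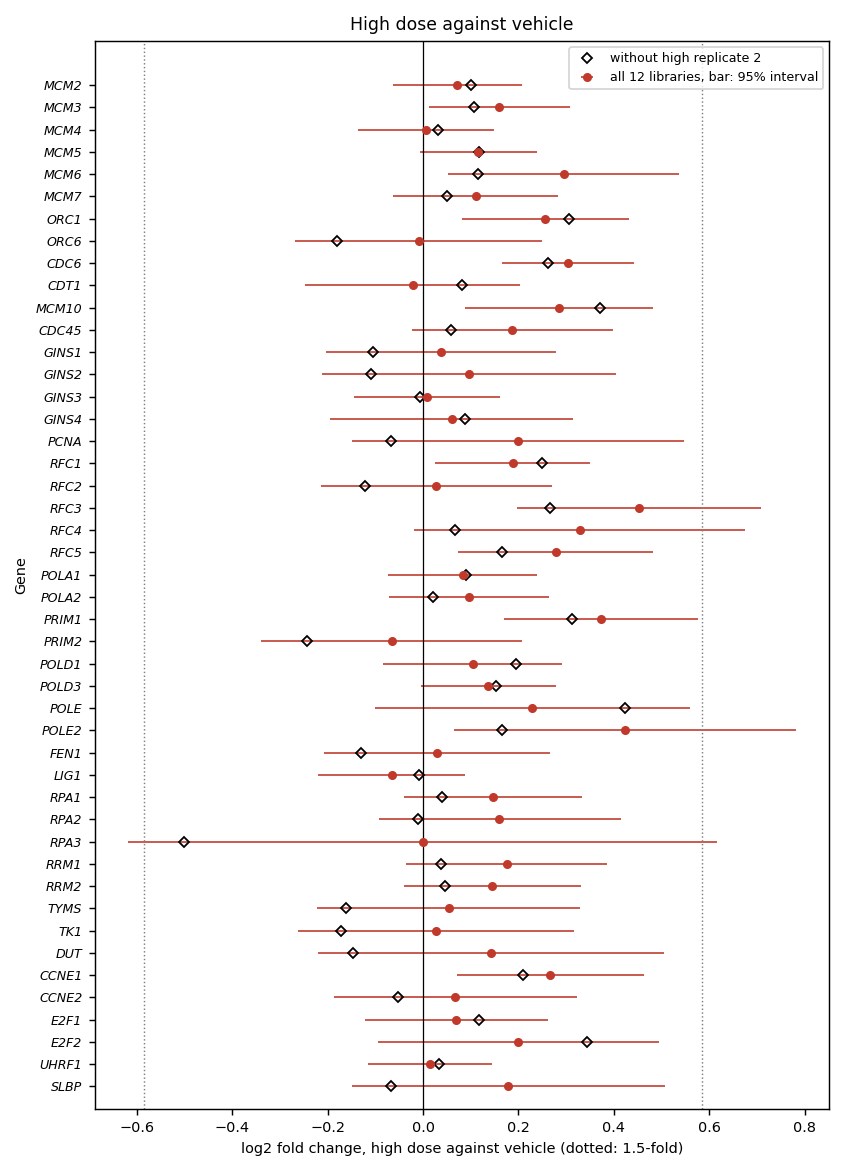
Log2 fold change at the high dose against vehicle for each of the 46 genes, from all 12 libraries (red points with 95% intervals) and without high-dose replicate 2 (open diamonds). Dotted lines mark a fold change of 1.5 in either direction. All red points lie between −0.066 and 0.452, and the diamonds of short-transcript genes such as PCNA, TK1, DUT and RPA3 lie to the left of their red points.

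None of the 6 MCM ring subunits passed at the high dose, and their log2 fold changes lay between 0.006 (MCM4) and 0.295 (MCM6). MCM2, often used as a marker of cells in cycle, had 197, 204 and 197 CPM in the vehicle libraries, 207, 213 and 218 at the low dose and 218, 205 and 222 at the medium dose, while the high-dose libraries had 212, 202 and 215. The high-dose libraries overlapped those of vehicle, and the log2 fold change was 0.07 ± 0.06 (SE, adjusted p = 0.58 in edgeR). MCM6 had 112, 112 and 117 CPM in vehicle, 119, 124 and 128 at the low dose and 124, 127 and 125 at the medium dose, while the high-dose libraries had 123, 173 and 123. All treated libraries of MCM6 lay above those of vehicle, and high-dose replicate 2 lay far above the rest. Its log2 fold change of 0.30 ± 0.11 (SE, adjusted p = 0.156) became 0.12 ± 0.05 (SE, adjusted p = 0.135 in edgeR) without that library.

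CDC6, the licensing ATPase that helps load the MCM ring, had the smallest p of all 46 members when the high dose was compared with vehicle. It is encoded at chr17:40287879-40304657 (GRCh38, plus strand, 12 exons). CDC6 had 73.5, 75.9 and 77.9 CPM in the vehicle libraries, 78.2, 75 and 79.3 at the low dose and 81.2, 79.9 and 85.4 at the medium dose, while the high-dose libraries had 91, 99.2 and 90.7. The high-dose libraries lay above all 9 others and the medium-dose libraries above those of vehicle, while low dose and vehicle overlapped. CDC6 rose 1.23-fold at the high dose (log2 fold change 0.30 ± 0.06 SE, 95% interval 0.165 to 0.442, adjusted p = 0.015 in edgeR), and without high-dose replicate 2 the log2 fold change was 0.26 ± 0.06 (SE, adjusted p = 0.00358). The call was lost without vehicle replicate 1 (adjusted p = 0.0533 in edgeR), without vehicle replicate 2 (adjusted p = 0.0628), with no filter on low counts (adjusted p = 0.0699) and when only vehicle and high-dose libraries were fitted in edgeR (adjusted p = 0.208), while DESeq2 on the same libraries kept it (adjusted p = 0.0332).

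ORC1, the largest subunit of the origin recognition complex, had 27.3, 29.9 and 32.1 CPM in vehicle, 35.1, 34.9 and 33.2 at the low dose and 36.9, 34.4 and 37.6 at the medium dose, while the high-dose libraries had 36, 32.8 and 37.6. All 9 treated libraries lay above the 3 of vehicle, and the doses overlapped each other. Its log2 fold change at the high dose was 0.26 ± 0.08 (SE, adjusted p = 0.0895 in edgeR), and 0.31 ± 0.07 (SE, adjusted p = 0.00774) without high-dose replicate 2. CDT1, the partner of CDC6 in loading the ring, had a log2 fold change of −0.022, and 0.082 without that library. ORC6, a small subunit of the origin recognition complex, had −0.009 with replicate 2 at 48.6 CPM against 34 and 35.2 in the other high-dose libraries, and −0.18 ± 0.07 (SE, adjusted p = 0.0909 in edgeR) without it. Its log2 fold changes at the low and medium doses were −0.238 and −0.242.

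The 6 genes of helicase activation held 0 calls at the high dose, with log2 fold changes from 0.009 (GINS3) to 0.285 (MCM10). MCM10, which helps start unwinding, had 29.6, 32.8 and 33.3 CPM in vehicle, 34.5, 35.8 and 32.3 at the low dose and 38.1, 35.4 and 37.3 at the medium dose, while the high-dose libraries had 42.6, 33.7 and 40.2. The high- and medium-dose libraries lay above those of vehicle, and here high-dose replicate 2 was the lowest of its group. With it the log2 fold change was 0.28 ± 0.09 (SE, adjusted p = 0.0938 in edgeR) and without it 0.37 ± 0.07 (SE, adjusted p = 0.00157). Of the GINS subunits, GINS1 and GINS2 had 0.037 and 0.096 with that library and −0.105 and −0.11 without it.

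In the clamp and its loader 1 of 6 members was called and the median log2 fold change was 0.239, or 0.116 without high-dose replicate 2. RFC3, a small subunit of the clamp loader encoded at chr13:33818069-33966558 (plus strand, 9 exons), had 75.2, 74.5 and 77.1 CPM in vehicle, 82.2, 75.9 and 86.2 at the low dose and 84, 86.1 and 83.1 at the medium dose, while the high-dose libraries had 88.9, 129 and 92.8. The high-dose libraries lay above all others, with replicate 2 far above its own group. RFC3 rose 1.37-fold (log2 fold change 0.45 ± 0.12 SE, 95% interval 0.196 to 0.709, adjusted p = 0.0438 in edgeR), and without that library the log2 fold change was 0.27 ± 0.06 (SE, adjusted p = 0.00509). The call on RFC3 held under 11 of 23 alternatives, with adjusted p between 8.56e-05 and 0.278 in edgeR or DESeq2, and was lost without any single vehicle, low-dose or medium-dose library (adjusted p from 0.0627 to 0.145).

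RFC5, another small subunit of the loader, had 38.2, 40.3 and 42.7 CPM in vehicle, 42.9, 41.7 and 46 at the low dose and 43.1, 43.5 and 45.4 at the medium dose, while the high-dose libraries had 43.5, 56.8 and 47. High-dose replicate 2 was again the highest, and the log2 fold change of 0.28 ± 0.09 (SE, adjusted p = 0.115 in edgeR) was 0.17 ± 0.07 (SE, adjusted p = 0.0965) without it. PCNA, the clamp that RFC loads, had 254, 215 and 211 CPM in vehicle, 215, 204 and 237 at the low dose and 226, 222 and 221 at the medium dose, while the high-dose libraries had 218, 350 and 215. Apart from high-dose replicate 2, every treated library of PCNA lay within the range of vehicle or below it. Its log2 fold change of 0.20 ± 0.16 (SE, adjusted p = 0.543 in edgeR) turned to −0.07 ± 0.08 (SE, adjusted p = 0.57) without that library.

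Of the primase and polymerase genes 1 of 8 was called. PRIM1, the catalytic primase subunit encoded at chr12:56730438-56752374 (minus strand, 13 exons), had 17.9, 17.3 and 18.6 CPM in vehicle, 19.7, 18.1 and 19.5 at the low dose and 16.5, 20.7 and 19 at the medium dose, while the high-dose libraries had 22.2, 25.4 and 22.2. The high-dose libraries lay above all 9 others, which overlapped. PRIM1 rose 1.29-fold (log2 fold change 0.37 ± 0.09 SE, 95% interval 0.169 to 0.576, adjusted p = 0.0375 in edgeR), and 0.31 ± 0.09 on the log2 scale (SE, adjusted p = 0.0184) without high-dose replicate 2. The call on PRIM1 held under 9 of 23 alternatives, with adjusted p between 0.0077 and 0.179 in edgeR or DESeq2. It was lost without any single vehicle or low-dose library, medium-dose replicate 3 or high-dose replicate 1 or 3 (adjusted p from 0.0555 to 0.147). Of its canonical exon bases 8.64% also belong to HSD17B6 on the other strand. PRIM2, its regulatory partner in the primase, had a log2 fold change of −0.066 (adjusted p = 0.836 in edgeR), and −0.244 (adjusted p = 0.0399) without that library.

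The catalytic subunit of polymerase epsilon, POLE, and its accessory subunit POLE2 were picked out after their values were seen, because high-dose replicate 2 stood at opposite ends for them. POLE had 109, 130 and 130 CPM in vehicle and 165, 102 and 165 at the high dose, so that replicate 2 was the lowest of the 12 libraries. POLE2 had 12.8, 13.1 and 12.1 CPM in vehicle and 14.1, 23.3 and 14.2 at the high dose, with replicate 2 the highest. Without that library the log2 fold change of POLE went from 0.23 ± 0.15 (SE, adjusted p = 0.447) to 0.42 ± 0.07 (SE, adjusted p = 0.00062 in edgeR), and that of POLE2 from 0.42 ± 0.17 to 0.17 ± 0.09 (SE, adjusted p = 0.214).

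The ligase LIG1 and the flap nuclease FEN1, which join Okazaki fragments, had log2 fold changes of −0.066 and 0.03 at the high dose, and −0.009 and −0.13 without replicate 2. For the 3 RPA subunits, which coat single-stranded DNA, the values were 0.147 (RPA1), 0.16 (RPA2) and 0 (RPA3) with all libraries and none was called, while without high-dose replicate 2 they were 0.039, −0.011 and −0.502. RPA3, singled out after its values were seen as the most variable member, lay between 20.4 and 56.2 CPM over the 12 libraries, with both ends at the high dose, in replicates 1 and 2. Its value without replicate 2 did not pass in edgeR (adjusted p = 0.078) and passed in DESeq2.

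None of the 5 nucleotide supply genes passed at the high dose. RRM2, the subunit of ribonucleotide reductase whose level follows S phase, had 260, 273 and 280 CPM in vehicle, 289, 266 and 286 at the low dose and 282, 297 and 284 at the medium dose, while the high-dose libraries had 275, 340 and 284. The high-dose and vehicle libraries overlapped, and the log2 fold change was 0.15 ± 0.09 (SE, adjusted p = 0.384 in edgeR), and 0.05 ± 0.06 (SE, adjusted p = 0.629) without high-dose replicate 2. The other 4, the large subunit RRM1, the thymidine enzymes TK1 and TYMS and the dUTPase DUT, had log2 fold changes between 0.028 and 0.175. Without that library those of RRM1, TYMS, TK1 and DUT were 0.038, −0.161, −0.173 and −0.147, and TYMS passed as lower (adjusted p = 0.0442 in edgeR).

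Of the genes that time entry into S phase, CCNE1, the cyclin that activates CDK2, had 16.8, 20 and 18.3 CPM in vehicle, 18.5, 17.7 and 19.8 at the low dose and 19.9, 21 and 18.6 at the medium dose, while the high-dose libraries had 22.3, 23.9 and 20.6. The high-dose libraries lay above those of vehicle by a narrow margin, and the log2 fold change was 0.27 ± 0.09 (SE, adjusted p = 0.115 in edgeR). E2F1 had 80.9, 69.3 and 63.4 CPM in vehicle, 70.6, 72.6 and 68 at the low dose and 69.6, 75 and 71.9 at the medium dose, while the high-dose libraries had 78.8, 69.8 and 75.3. Every treated library of E2F1 lay within the range of vehicle, with a log2 fold change of 0.07 ± 0.09 (SE, adjusted p = 0.723 in edgeR). CCNE2 and E2F2 had 0.068 and 0.2, and UHRF1, which carries DNA methylation through replication, and SLBP, which binds histone mRNA, had 0.014 and 0.178, all without a call. Without high-dose replicate 2 the values of CCNE2, E2F2, UHRF1 and SLBP were −0.053, 0.343, 0.033 and −0.067.

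**Figure D3:**
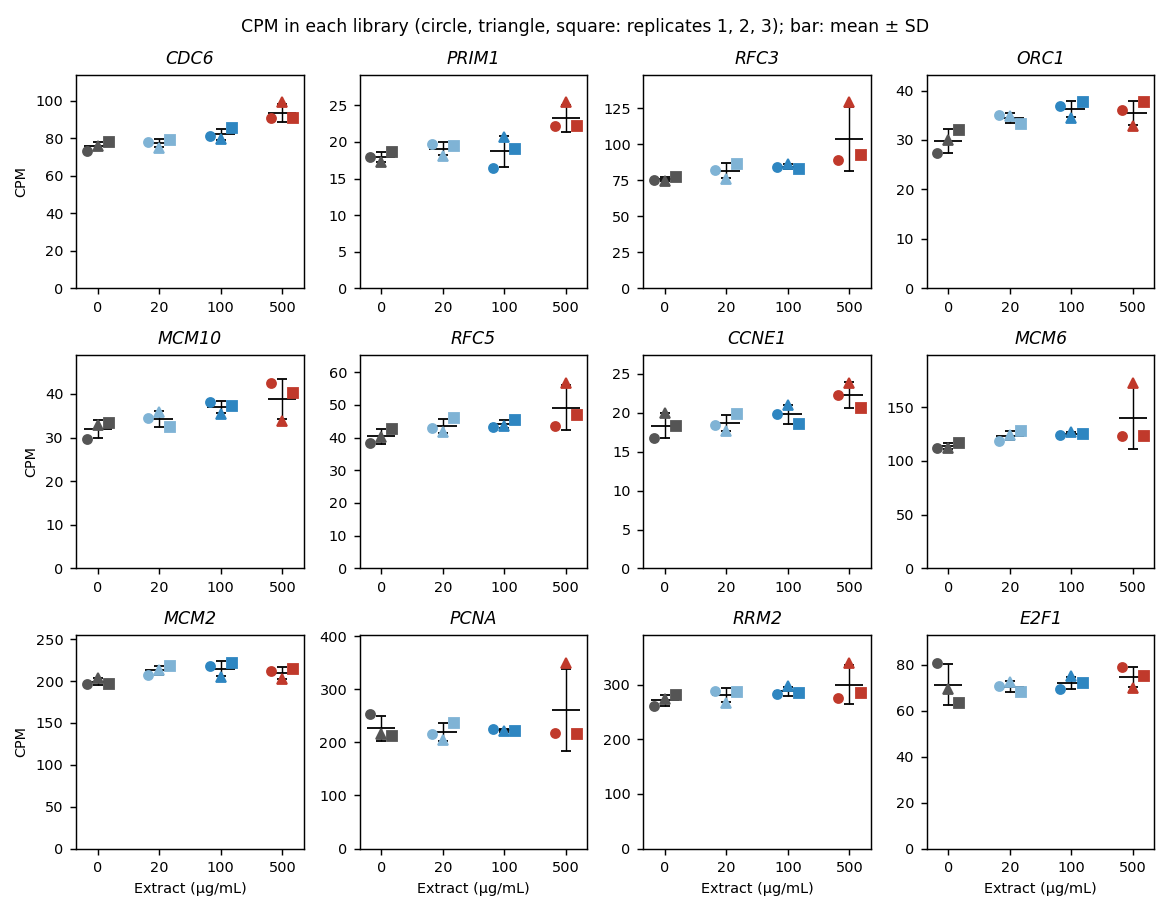
CPM of the 12 genes described library by library, in vehicle and at the 3 doses (20, 100 and 500 µg/mL), with each library as a point and bars for the group mean ± SD. Triangles mark replicate 2, which at the high dose is the highest library of RFC3 (129), MCM6 (173), PCNA (350) and RRM2 (340).

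High-dose replicate 2 was the highest of the 12 libraries for 29 members and the lowest for 6. Such counts, here and below, were not made over all genes. The library deviated from its group mates with an SD of 0.387 over the members and 0.502 over genes above 5 CPM. The CPM of the 46 members summed to 5153 in this library and to between 4210 and 4500 in the other 11. Compared with the mean of replicates 1 and 3 of the same dose, it was over 1.2 times as high for 23 members and under 0.8 times as high for 3. Across the 46 members, its log2 difference from those libraries correlated with the log2 length of the canonical transcript at r = −0.71 (rho = −0.7), a description over genes that share 1 library. The same correlation was 0.65 for replicate 1 and 0.7 for replicate 3 of the high dose, which are compared with a mean that includes replicate 2, and in the vehicle and low-dose groups it reached −0.58 (vehicle replicate 1), 0.58 (vehicle replicate 3), 0.54 (low-dose replicate 2) and −0.59 (low-dose replicate 3). Over the tested genes above 5 CPM it was −0.54 in high-dose replicate 2. The fold changes of the members against vehicle correlated with log2 transcript length, with r = 0.54 for medium and 0.49 for low, over genes that share the same libraries. The 23 shorter members had median log2 fold changes of −0.014 (medium) and −0.036 (low), and the 23 longer members 0.116 and 0.086. With an offset for transcript length, which is fitted to take out such a slope, these correlations were 0.21 and 0.08. Without vehicle replicate 1, a library that all 3 comparisons share, they were 0.4 for medium and 0.28 for low. At the high dose r was −0.04 with all libraries, 0.5 without high-dose replicate 2 and −0.31 without vehicle replicate 1.

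**Figure D4:**
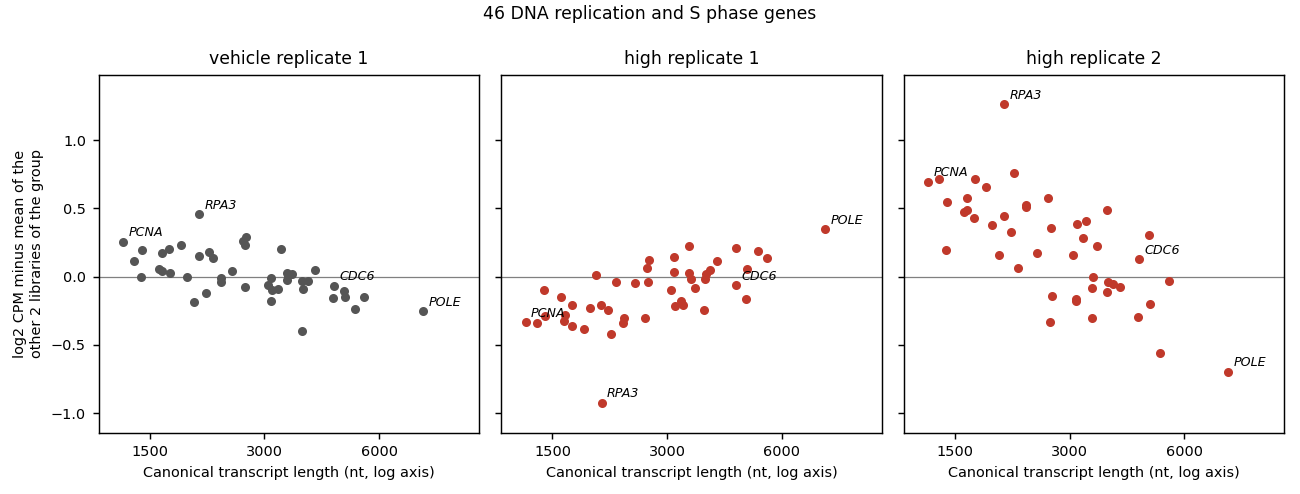
Log2 difference of each of the 46 genes in vehicle replicate 1, high-dose replicate 1 and high-dose replicate 2 from the mean of the other libraries of its group, against the length of its canonical transcript (log axis, in nucleotides). In high-dose replicate 2 short genes such as RPA3 and PCNA lie high and the long gene POLE low (r = −0.71), in high-dose replicate 1 the slope is the opposite (r = 0.65), and in vehicle replicate 1 it is downward too (r = −0.58).

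Without high-dose replicate 2, 11 members passed at the high dose, against 18.7% of the 15674 genes then tested. Of these, 9 rose (ORC1, CDC6, MCM10, RFC1, RFC3, PRIM1, POLD1, POLE and E2F2) and 2 fell (PRIM2 and TYMS). With all 12 libraries and an offset per library for transcript length and GC content, 9 members passed, all higher, against 14.6% of all genes: ORC1, CDC6, MCM10, RFC1, RFC3, RFC4, RFC5, POLE and POLE2. CDC6 and RFC3 passed in both of these and in the fit of all 12 libraries with no offset.

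All 3 high-dose libraries lay above all 3 of vehicle for 12 members (MCM3, MCM5, MCM6, ORC1, CDC6, MCM10, RFC3, RFC5, PRIM1, POLD3, POLE2 and CCNE1), against 10.5% of all genes tested, and below them for 0 members, against 11.5%. High-dose replicates 1 and 3 alone lay above vehicle for 17 members and below it for 10 (ORC6, GINS1, GINS2, RFC2, PRIM2, FEN1, RPA3, TYMS, TK1 and DUT), against 25.2% of all genes each way. At the medium dose 16 members lay wholly above vehicle (14.5% of all genes) and 6 wholly below (14.1%), and at the low dose the counts were 8 (11.4%) and 3 (9.61%). MCM3, MCM5, MCM6 and ORC1 were wholly above at each of the 3 doses. The doses share the same vehicle libraries, and the share of all genes that repeat a direction over several doses was not counted. These repeats are therefore a description and not a result about the members. ORC6 and GINS1 were wholly below at the low and medium doses, and at the high dose replicates 1 and 3 were below vehicle and replicate 2 above it.

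At the medium dose 0 members passed, against 1.01% of all genes tested, and 4 had an unadjusted p under 0.05, all higher, against 11.7% in either direction and 5.09% higher. DESeq2's Wald test on all libraries called 1 member there, ORC1, against 2.32% of all genes. The median log2 fold change was 0.066 (all genes −0.01), and values ran from −0.398 (RPA3) to 0.317 (POLE). At the low dose 0 members passed, against 0.124% of all genes, and 2 had an unadjusted p under 0.05, both higher, against 7.95% in either direction and 3.38% higher. DESeq2's Wald test on all libraries called 0 there (0.709% of all genes), the median was 0.034 (all genes −0.001) and values ran from −0.273 (RPA3) to 0.277 (POLE). At each of these doses 44 members had a 95% interval within 1.5-fold of vehicle. Without high-dose replicate 2, which also sets the common spread, ORC1 and POLE rose and ORC6 fell at the medium dose (6.87% of all genes passed), and POLE rose at the low dose (2.03% passed).

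For a linear trend over the 4 dose ranks, 2 members passed, CDC6 and RFC3, against 5.74% of all genes. The slope was 0.10 ± 0.02 on the log2 scale per dose step for CDC6 (SE, adjusted p = 0.0121 in edgeR) and 0.14 ± 0.04 for RFC3 (SE, adjusted p = 0.0359). The trend of CDC6 passed under all 21 alternatives run for it and that of RFC3 under 14 of 21, lost without any vehicle library, low-dose replicate 1 or 2 or high-dose replicate 3 (adjusted p from 0.0534 to 0.0877 in edgeR). In the high dose against the low dose only CDC6 passed, against 2.98% of all genes, with a log2 fold change of 0.27 ± 0.06 (SE, adjusted p = 0.0403 in edgeR), and this call held under 9 of 23 alternatives. It was lost without any single low- or medium-dose library, vehicle replicate 2 or 3, or high-dose replicate 1 or 3 (adjusted p from 0.0547 to 0.176 in edgeR).

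**Figure D5:**
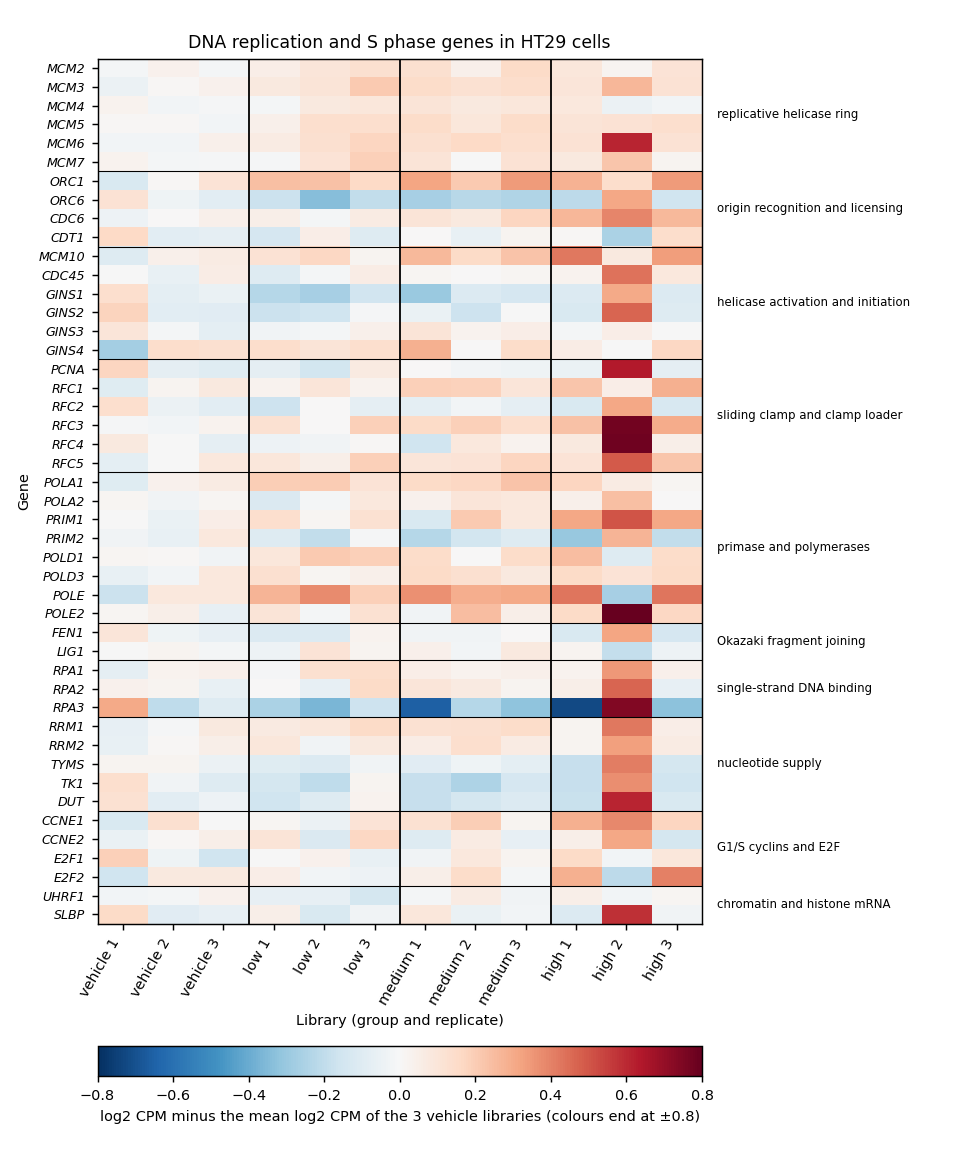
Log2 difference of each of the 46 genes in each of the 12 libraries from its mean over the vehicle libraries, grouped by role. The column of high-dose replicate 2 stands out, with a median of 0.31, against 0.054 and 0.052 in high-dose replicates 1 and 3. The medians of the low- and medium-dose libraries lie between −0.0067 and 0.071.

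The members differed in how steady they were. Over the 11 libraries without high-dose replicate 2, the coefficient of variation had a median of 6.34% and ran from 3.37% (LIG1) to 19.6% (RPA3), and the highest library was at a median 1.23 times the lowest. With all 12 libraries the median was 9.60%. The median Pearson r between members in log2 CPM was 0.28 over 12 libraries and 0.12 over 11, and pairs above 0.8 went from 140 to 29 of 1035, as a description over libraries that share the depth and the composition of each sample. The member with the pattern most like CDC6 was RFC3 over 12 libraries (r = 0.89) and MCM10 over 11 (r = 0.87). Members with E2F letters in the promoter had a median log2 fold change of 0.096 at the high dose (2 of 18 passed). Members of the promoter table without them had 0.175 (1 of 21 passed), and 5.77% of all genes tested passed. The split is by these letters alone and not by known targets of E2F. PCNA, ORC1, RRM2 and CCNE1 are among the members without them.

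Genes around the replication machinery were read from 5 further lists. Over all genes tested at the high dose in edgeR, 5.77% passed, 2.82% passed as higher and 20.1% had an unadjusted p under 0.05. Of 39 other replication genes 1 rose at the high dose, near the share over all genes, and 0 fell, with a median log2 fold change of 0.116. The one that rose, CHTF18, part of an alternative clamp loader, had 44.2, 40.5 and 40.6 CPM in vehicle and 57.5, 46.2 and 56 at the high dose (log2 fold change 0.35 ± 0.09 SE, adjusted p = 0.0398 in edgeR). Of 17 replication checkpoint and repair genes 2 rose and 0 fell (median 0.215), FANCD2 of the Fanconi anaemia pathway (0.26 ± 0.06 SE, adjusted p = 0.0362 in edgeR) and its deubiquitinase USP1 (0.22 ± 0.06 SE, adjusted p = 0.0433). Of 20 G2 and mitosis genes 1 rose, the spindle checkpoint kinase BUB1B (0.23 ± 0.06 SE, adjusted p = 0.0451 in edgeR), and the median was 0.039. Of 21 other genes of nucleotide synthesis 0 passed in edgeR (7 at an unadjusted p under 0.05), with a median of 0.143. The calls on CHTF18, FANCD2, USP1 and BUB1B held under 10, 8, 8 and 8 of 23 alternatives.

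Of 30 tested genes of G1/S control 1 rose and 0 fell, against 2.82% of all genes that rose, with a median of 0.064. CDKN1A, the CDK inhibitor p21, had 16.1, 14.3 and 14.8 CPM in vehicle, 18.8, 16.6 and 20.1 at the low dose and 20.9, 18.5 and 20.2 at the medium dose, while the high-dose libraries had 24.3, 21.6 and 21.6. All treated libraries lay above those of vehicle, and the high-dose libraries above all others. CDKN1A rose by 0.58 ± 0.09 on the log2 scale at the high dose (SE, adjusted p = 0.0032 in edgeR), and the call held under 22 of 23 alternatives. At the medium dose 0 of the 127 tested genes of these 5 lists passed in edgeR (1.01% of all genes) and 17 had an unadjusted p under 0.05 (11.7%). DESeq2 called 5 there (2.32% of all genes): WDHD1, CDK2, CDKN1A, USP1 and BUB1B. At the low dose the 3 counts were 0 (0.124% of all genes), 9 (7.95%) and 0 (0.709%).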

How the data were processed

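Per the labels, total RNA of HT29 cells was made into libraries with a directional kit and sequenced with paired-end reads. The submitters' processing notes name FastQC 0.11.9, Trim Galore 0.6.5, STAR 2.7.3a and RSEM 1.3.3, and the study's methods name other versions of the trimmer and the aligner. The deposited values are the expected counts per gene that the authors obtained from RSEM, not normalized. Of the 60675 gene IDs, 93.2% are in GENCODE release 44 (GRCh38), which gave the positions, canonical transcripts and lengths.

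Expected counts were rounded to whole numbers, filtered with filterByExpr and scaled by TMM. All 12 libraries entered 1 robust quasi-likelihood fit in edgeR 4.0.16 under R 4.3.3 with the 4 groups as terms. Adjusted p-values are by Benjamini–Hochberg over the 15374 genes tested, log2 fold changes are those of the fit and SEs come from the F statistic. A prior count of 2 was used for the log2 CPM behind deviations and correlations, and none for the printed CPM. The Wald test of DESeq2 1.42.0 was an alternative. The tests were first run on simulated data with the same spread for all genes and with no deviating library or slope with transcript length. That run does not cover these features of the real data. Common dispersion was 0.0126, a biological coefficient of variation of 11.2%, and depth per library is given above.

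Values per library are given for members with an adjusted p under 0.05 in any comparison, filled up to the 8 smallest p-values at the high dose, with MCM2, PCNA, CDC6, CCNE1, RRM2 and E2F1 added. From the other lists the genes that passed at the high dose are named, and genes picked otherwise are said to be so, as are the genes that only DESeq2 called. The members and lists were chosen with earlier results of these data known. The alternatives were DESeq2 or edgeR on all libraries or only the groups compared, DESeq2's size factors, no filter or at least 10 counts in every library, a minimum fold change, a block for the replicate number, and fits without each single library. Offsets for transcript length and for length with GC content, library sizes without chromosome M, and DESeq2 without high-dose replicate 2 were added after seeing the data. Libraries of the series from other cells or treatments were not analysed here. Promoters and their coordinates are from RefSeq (GRCh38.p14).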

Additional observations from a re-analysis of the deposited data

Results flagged for a closer look

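The effect of the extract differed between the high and the low dose in edgeR's quasi-likelihood test for 1 of the 46 replication genes. It also differed for 2 of the 127 tested genes of the neighbouring lists, against 2.98% of all genes. Neither count was above that share. CDC6 was higher at the high than at the low dose, with a log2 fold change of 0.272 (SE 0.064, adjusted p = 0.0403), and all 3 high-dose libraries (90.7 to 99.2 CPM) lay above the low-dose libraries (75 to 79.3 CPM). This call held under 9 of 23 alternatives.

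TFDP2, a dimer partner of E2F factors, was lower at the high than at the low dose, with a log2 fold change of −0.389 (SE 0.09, adjusted p = 0.038 in edgeR). It had 26.4, 27 and 24.2 CPM at the low dose and 21.3, 16.9 and 20.7 at the high dose, with replicate 2 the lowest. SAMHD1, an enzyme that degrades dNTPs, was lower as well, with a log2 fold change of −0.488 (SE 0.112, adjusted p = 0.036 in edgeR). It had 34.9, 37.1 and 33.7 CPM at the low dose and 26.1, 20.7 and 28 at the high dose, with replicate 2 again the lowest. The calls on TFDP2 and SAMHD1 were not followed under the alternatives. Against vehicle neither of these 2 genes passed at the high dose (adjusted p = 0.0933 for TFDP2 and 0.182 for SAMHD1 in edgeR).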

How the results depend on the processing

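Of 172 counts and medians of the members recomputed under other settings, 60 moved, that is a count by over 1.5 times or a median by over the SD between libraries of the dose (0.146 at the high, 0.01 at the medium and 0.038 at the low dose). By this wide limit the high-dose median of 0.127, which was 0.055 without high-dose replicate 2, is not among them. The share of all genes that passed under the same setting follows each count in brackets. At the high dose, where 3 members passed (5.77%), DESeq2 gave 5 with all libraries (8.46%). It gave 1 with only the groups compared (3.52%) and 10 without high-dose replicate 2 (16.9%). edgeR gave 0 with only the groups compared (1.21%) and 1 with no filter on low counts (2.54%). It gave 8 with the length offset (9.08%) and 9 with the length and GC offset (14.6%). The count was 0 with a fold change over 1.5 (2.93%), and 0 to 11 when single libraries were left out (2.77% to 18.7%). In edgeR it was 0 without vehicle replicate 1 (3.61%) or 2 (2.77%) and 11 without high-dose replicate 2 (18.7%). It was 1 without vehicle replicate 3, any low-dose library or medium-dose replicate 3 (3.57% to 4.55%). At the medium dose (0 members, 1.01%) DESeq2 gave 1 with all libraries (2.32%), 3 with the groups compared (5.27%) and 5 without high-dose replicate 2 (7.5%). There edgeR gave 2 with the groups compared (4.18%) and 3 with the length and GC offset (3.34%). Leaving out single libraries gave 0 to 3 (0.378% to 6.87%). At the low dose (0 members, 0.124%) the count was 0 to 1 with single libraries left out (0.064% to 2.03%). It was 1 by DESeq2 without high-dose replicate 2 (2.85%). For the dose trend (2 members, 5.74%) DESeq2 gave 8 with all libraries (9.32%) and 11 without high-dose replicate 2 (19%). The length offset gave 10 (9.28%) and the length and GC offset 11 (13.5%). A fold change over 1.5 gave 0 (0.306%), and leaving out single libraries gave 1 to 10 (2.88% to 17.5%). For the high against the low dose (1 member, 2.98%) the count was 0 with the groups compared in DESeq2 (2.51%) or edgeR (0.635%). It was also 0 with no filter (1.41%) and with a fold change over 1.5 (1.58%). The length offset gave 3 (4.53%) and the length and GC offset 5 (8.27%). DESeq2 without high-dose replicate 2 gave 3 (6.52%), and leaving out single libraries 0 to 3 (1.44% to 7.29%). The median of the members at the medium dose (0.066) was 0.081 with no filter, 0.078 with the length offset and 0.055 to 0.073 with single libraries left out. The log2 fold change of PCNA at the high dose turned to −0.067 in edgeR (adjusted p = 0.57) and −0.066 in DESeq2 (adjusted p = 0.615) without high-dose replicate 2, and lay between −0.067 and 0.323 with single libraries left out. The cause of these moves was not tested.

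With the replicate number as a block, 1 member passed at the high dose (4.09% of all genes) and 1 in the trend (3.85%). In the high against the low dose 0 passed (2.02%). Same-numbered libraries of different groups had deviations from their group means with r from −0.495 to 0.372 (5 of 18 pairs over 0.1). For other numbers r ran from −0.536 to 0.541 (14 of 36 pairs), and the best partner carried the same number in 9 of 36 cases. Whether same-numbered libraries were handled together cannot be decided from this, because with 3 libraries per group 1 deviating library, such as high-dose replicate 2, moves the deviations of its whole group.

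With 3 libraries per group, the 95% interval of a member's log2 fold change at the high dose had a median arm of 0.21 and a widest of 0.62 (RPA3).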
